A study of Mus musculus with 9 samples.

Results

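Collagens, laminins and integrins are the protein families that build the connective tissue scaffold of the lung and tie its cells to it. All array probes whose gene symbol carries the collagen alpha chain, laminin chain or integrin subunit pattern were taken, which gave 60 of 10012 probes, for 59 of 8841 named genes. They comprised 8 fibrillar collagens, 8 basement membrane collagens, 12 other collagens, 8 laminin chains, 12 alpha integrins and 9 probes of beta integrins. The remaining 3, Itgb1bp1, Itgb1bp2 and Itgb3bp, carry the name of a beta integrin because their proteins bind one, and were kept apart. RNA levels had been measured in mouse lung tissue on 9 arrays, in a study of ventilator-induced lung injury. The 3 overventilation samples came from lungs ventilated mechanically with 25 cmH2O for 3 h, and the 3 LPS samples followed an injection of lipopolysaccharide of E. coli serotype O127:BO at 3 mg/kg, with no time after injection given. Another 3 samples were labelled control with no word on anaesthesia, sham ventilation or vehicle. The labels state neither strain, sex and age of the mice nor whether each sample is 1 animal. The p-values therefore reflect variation among these arrays, part of which could be technical.

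Fibrillar collagens form the banded fibrils of the interstitium, while collagen IV assembles into the network of basement membranes together with laminins, trimers of an alpha, a beta and a gamma chain. In the alveolus the basement membranes of epithelium and capillary lie against each other and bear the load of inflation. Integrins are pairs of an alpha and a beta subunit that span the plasma membrane, bind these proteins outside the cell and the actin cytoskeleton inside it, and on leukocytes also bind adhesion molecules of the endothelium.

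The deposited values are ratios of each probe to the mean of the 3 controls, given here on the log2 scale with the control mean at 0, so that no level of a gene can be set against that of another gene. Each array also has a lowest value that dim probes share, called the floor here, and it was highest on overventilation array 3, at 2.22 against 0.709 to 1.32 on the other arrays as a ratio. Values that could be placed relative to the floor were raised to that of overventilation array 3, and a probe was tested if 3 or more arrays lay above it or if its distance from the floor was unknown. This left 5710 probes, of which 0 passed limma at an adjusted p under 0.05 in any of the 3 comparisons of groups, while 850 had an unadjusted p under 0.05 between overventilation and control, 118 between LPS and control and 543 between overventilation and LPS. Among the tested probes were all 4 for alveolar type II markers, all 4 for alveolar type I markers and 2 of 3 for airway markers. The same filter kept 3 of 3 probes for adipose and 6 of 7 for fibroblast markers, so it cannot check the tissue label.

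Of the 60 members 31 could be tested, 28 of them with no known distance from the floor, and the integrins were the class most often lost. The floor held 14 members on all 9 arrays and a further 15 on 4 to 8 arrays. Only 2 of 12 alpha integrins were tested (16.7%), against 4 of 8 fibrillar collagens, 5 of 8 basement membrane collagens, 8 of 12 other collagens, 5 of 8 laminins, 4 of 9 beta integrin probes and 57% of all probes. At the floor throughout were Itga2, Itga2b, Itga5, Itga6, Itga7, Itga8 and Itgav among the alpha integrins, Itgb5 and Itgb7 among the beta integrins, Lama1 and Lama4 among the laminins and Col4a6, Col7a1 and Col8a1 among the collagens. For these genes the arrays give no value in any group. Just inside the limit for testing were Itgb3bp with 4 arrays and Itgb4 with 5 arrays above the common floor, and just outside it Itgb2 and Col16a1 with 2 arrays each.

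**Figure D1:**
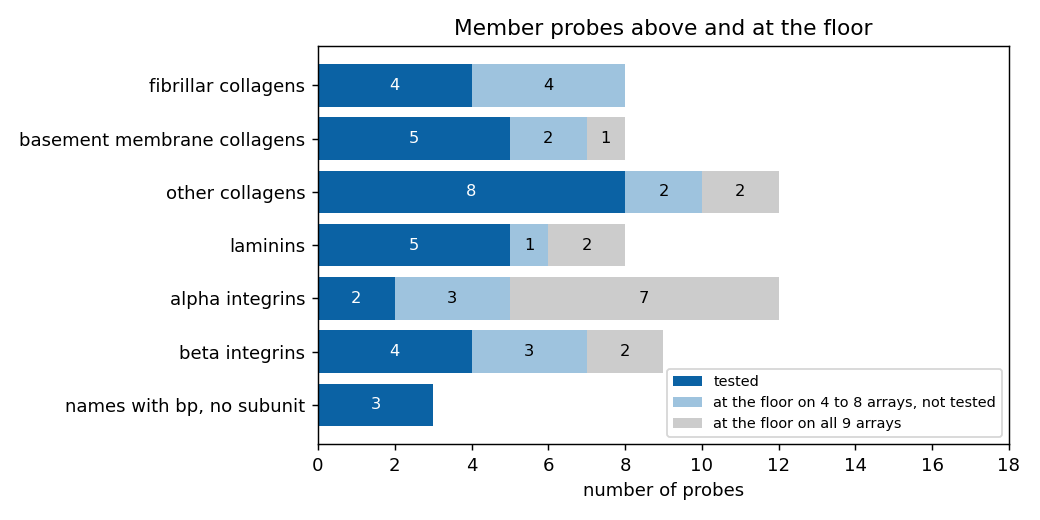
Horizontal bars give the number of member probes in each class, split into those tested, those at the floor on 4 to 8 arrays and not tested, and those at the floor on all 9 arrays. Of the 12 alpha integrins 7 lie at the floor on every array and 2 were tested, while 8 of the 12 other collagens were tested.

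Among the members not tested were the chains of the most abundant collagen, type I. Col1a1 lay at the floor on 6 arrays, and its signal was 0.07 above the array's own floor (log2) on LPS array 3, 0.35 on overventilation array 2 and 1.05 on overventilation array 3. Its partner chain Col1a2 lay above its floor on control array 3 (0.20), LPS array 2 (0.43) and overventilation array 2 (0.27), and thus on other arrays than Col1a1 except for overventilation array 2. Col4a2, a chain of the collagen IV network found in all basement membranes, was 2.57 above the floor on overventilation array 3 and at most 0.36 above it on the other 8 arrays. Its high signal was thus that of 1 array. Col2a1, the collagen of cartilage, lay above the floor on the arrays numbered 1, by 1.86 (control), 0.82 (LPS) and 1.07 (overventilation), and by at most 0.11 elsewhere. Some leukocyte integrin genes were among the members not tested. Itgam, the alpha subunit of Mac-1 on neutrophils and macrophages, left the floor on control array 1 alone, by 0.02. Itgb2, the beta subunit shared by the leukocyte integrins, lay 0.74, 1.51 and 0.00 above the floor on the controls, 1.37, 0.64 and 0.00 after LPS and 0.00, 0.37 and 0.00 after overventilation. Lamb1, a common laminin beta chain, lay furthest above an array's own floor on overventilation array 1, by 0.69. Only overventilation array 3 lay above the common floor for it, by 0.12. Floors differ between arrays, so a height above the own floor is no level. The platelet and endothelial subunit gene Itgb3 was at most 0.50 above the own floor on any array.

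Overventilated and control lungs were compared first, to see which matrix and adhesion genes differ after ventilation at high pressure. No member passed limma over all probes. The lowest changes were those of Col6a3, Lamb2 and Lama2, each of them furthest from the controls on overventilation arrays 1 and 3. The highest was that of Col4a5 (1.19), whose samples overlapped with the controls, and Col11a1 (0.84) was the member with all 3 overventilated samples above the controls. At an unadjusted p under 0.05 stood 6 of 31 tested members (19.4%, against 14.9% of all tested probes), 1 of them higher (6.20% of all probes) and 5 lower (8.69%). The samples did not overlap for 7 of 31 (22.6%, against 19.6% of all probes), 1 of them higher (9.12%) and 6 lower (10.5%). These shares lie near the background of the array. With quantile normalization only Col6a3 kept an unadjusted p under 0.05, as it did without control replicate 1, while without overventilation replicate 3 it was joined by Col18a1 and without control replicate 2 by Lamb2.

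**Figure D2:**
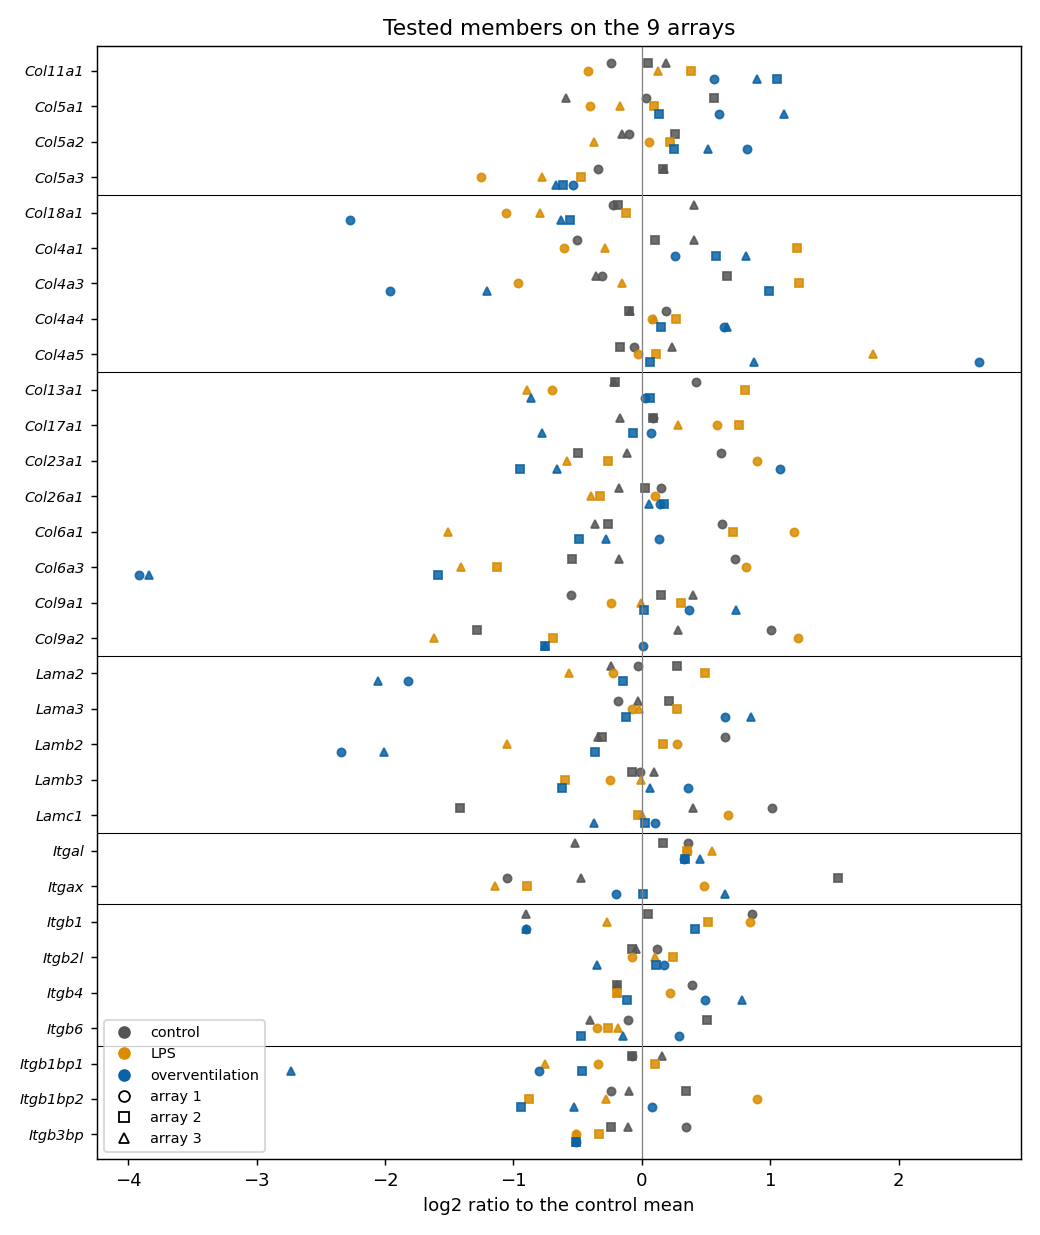
Each row is a tested member, grouped by class from fibrillar collagens at the top to the 3 integrin-binding proteins at the bottom, and each symbol is 1 array, with the log2 ratio to the control mean on the x axis. The overventilation arrays 1 and 3 of Col6a3 lie at -3.92 and -3.83, and those of Lama2 and Lamb2 between -2.34 and -1.82, apart from overventilation array 2.

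Collagen VI, built of different chains, forms beaded microfilaments that link basement membranes to the interstitial matrix. Its chain Col6a3 stood at 0.73, -0.55 and -0.18 on the controls, at 0.81, -1.12 and -1.41 after LPS, and at -3.92, -1.59 and -3.83 after overventilation. All 3 overventilated samples lay below every other array, and LPS array 1 was the highest of the 9. The overventilation mean was -3.11 ± 1.32 (SD, n = 3) against 0 ± 0.65 in controls, an 8.64-fold lower value (limma SE 0.75 on the log2 scale, unadjusted p = 0.00208, adjusted p = 0.193). Against LPS the difference was -2.54 with an SE of 0.75 (adjusted p = 0.494). In bulk tissue fewer cells that make a transcript and less of it per cell cannot be told apart. Col6a1, another chain of the same protein, did not share the low values, with 0.14, -0.49 and -0.28 after overventilation against 0.62, -0.26 and -0.36 in controls (log2 change -0.21, SE 0.63), and its spread after LPS was wide, at 1.18, 0.71 and -1.51. On overventilation arrays 1 and 3, where Col6a3 had been seen to be low, 139 of 5710 tested probes lay more than 1.5 below all 7 other arrays. Of the 31 tested members 1 did so, Col6a3.

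Lama2 and Lamb2 are the alpha and beta chains of laminins in the basement membranes of muscle and mesenchymal cells, where they join the gamma chain Lamc1. Lamb2 stood at 0.65, -0.31 and -0.34 on the controls, at 0.27, 0.17 and -1.05 after LPS and at -2.34, -0.36 and -2.0 after overventilation. Overventilation array 2 lay just below the lowest control, and arrays 1 and 3 far below it. Its mean after overventilation was -1.57 ± 1.06 (SD, n = 3) against 0 ± 0.56, a 2.96-fold lower value (limma adjusted p = 0.253), and its log2 change of -1.57 was -0.97 with quantile normalization. Lama2 had values of -0.03, 0.27 and -0.24 in controls, -0.22, 0.49 and -0.57 after LPS and -1.82, -0.14 and -2.06 after overventilation. Overventilation array 2 thus fell inside the control range, and the mean of -1.34 ± 1.04 against 0 ± 0.26 (2.53-fold lower, limma adjusted p = 0.267) rests on the other arrays. Lamc1 did not follow, with 0.10, 0.03 and -0.37 after overventilation against a wide control range of 1.02, -1.42 and 0.40 (log2 change -0.08, SE 0.56).

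**Figure D3:**
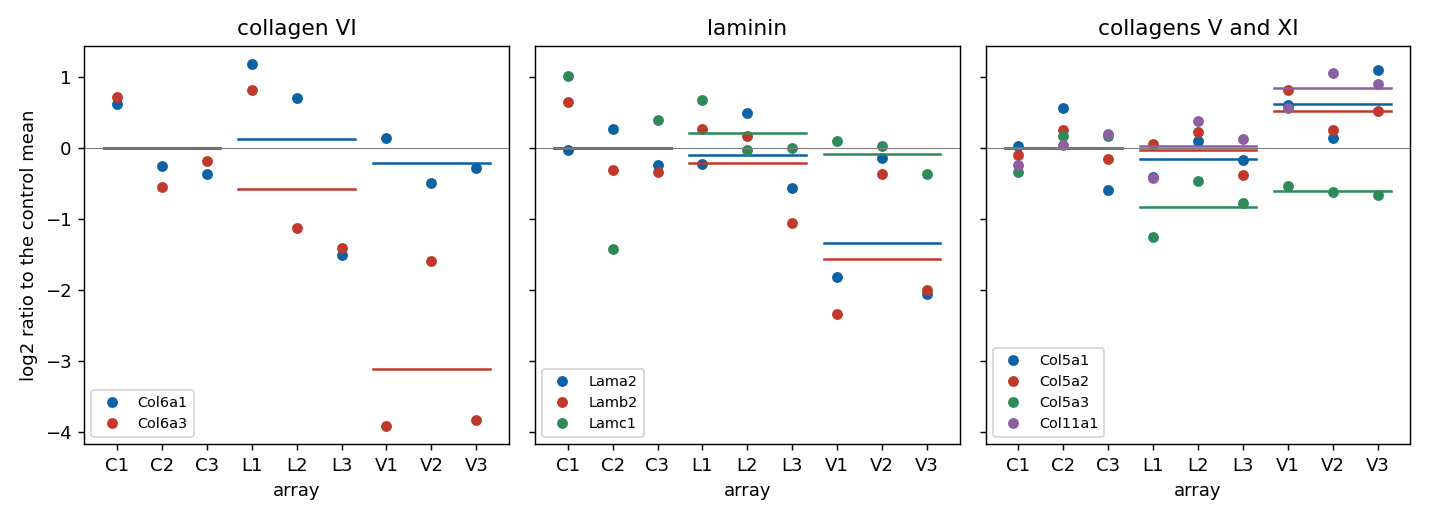
Points show the log2 ratio to the control mean on each array (C, control; L, LPS; V, overventilation, numbered as in the labels), and horizontal lines show the group means, for chains of collagen VI, of laminins and of collagens V and XI. Col6a3, Lama2 and Lamb2 are low on overventilation arrays 1 and 3, Col6a1 and Lamc1 are not, and Col5a3 lies below its controls in both treated groups.

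Without overventilation array 2, the array on which these genes were nearest to the controls, limma called 290 of 5710 probes against control (5.08%), 271 of them lower, and among them Col6a3 (log2 change -3.87, adjusted p = 0.0127), Lama2 (-1.94, adjusted p = 0.0264) and Lamb2 (-2.17, adjusted p = 0.0454). Against LPS it then called 226 probes (3.96%), Col6a3 and Lama2 among them. The 3 calls rest on leaving out the sample that differs from its group and so describe arrays 1 and 3. Of the 31 tested members 5 lay on overventilation arrays 1 and 3 below all 7 other arrays (16.1%, against 11.6% of all probes): Col4a3, Col6a3, Lama2, Lamb2 and Itgb1bp1. Another 5 lay above all other arrays there (16.1%, against 5.20%): Col4a4, Col5a1, Col5a2, Lama3 and Itgb4. Arrays 2 and 3 shared 1 member above (7.53% of all probes) and 1 below (2.28%), and arrays 1 and 2 shared none (1.10% above and 1.09% below).

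Marker genes of other cell types were read on the same arrays. Of 5 probes for skeletal and heart muscle markers 2 were at the floor on all 9 arrays and 2 were tested, and the median of these (Tnnt2 and Actc1) was -1.45, 0.04 and -2.13 on overventilation arrays 1 to 3, against -0.40 to 0.36 on the controls and -0.66 to 0.22 after LPS. The low values were those of Tnnt2, at -2.68, -0.06 and -3.44, while Actc1 stood at -0.22, 0.15 and -0.82 against -0.75 to 0.48 on the controls. Fibroblast markers, 6 of 7 tested, had medians of -0.20, -0.04 and -0.82 on overventilation arrays, against 0.00 to 0.22 on the controls and -0.66 to 0.06 after LPS. Their median on overventilation array 1 lay within the range after LPS. The members differed, with log2 changes after overventilation from -1.07 (Pdgfra) to 0.58 (Mfap4). Dcn stood at -1.43, -0.33 and -1.34 on the overventilation arrays against -0.47 to 0.36 on the controls. Mfap4 stood at 0.03, 0.73 and 0.98 there against -0.84 to 0.45. Smooth muscle markers, 4 of 5 tested with 0 at the floor on all 9 arrays, had medians of -0.90, 0.12 and 0.05 on the overventilation arrays. The medians were -0.57 to 0.38 on the controls and -0.99 to 0.01 after LPS, so that of overventilation array 3 was not low. On that array Acta2 stood at 2.99 and Tagln at 0.71, while Myh11 stood at -0.61 against -0.46 to 0.47 on the controls. Adipose markers, 3 of 3 tested, had medians of -0.36, -2.21 and -1.19 on the overventilation arrays, against -1.70 to 0.93 on the controls and -5.28 to -1.93 after LPS. The value of -2.21 is the common floor of Retn, met on all 3 overventilation arrays. Adipoq (-0.36, -2.88 and -1.14) and Fabp4 (-0.23, -2.14 and -1.19) were lowest on overventilation array 2. The part of these cell types in the values of Col6a3, Lama2 and Lamb2 was not tested. Alveolar type I markers (4 tested) had a median of 3.06 on overventilation array 3 and at most 1.00 on any other array. Its members differed there, with Ager at 4.48, Aqp5 at 3.15 and Pdpn at 0.63. Aqp5 was also high on control array 1 (2.48) and after LPS (2.33 to 2.81). Some genes of other lists were high on overventilation array 3 too, such as Lyz2 (4.77) and Sftpd (4.12), while Sftpa1 (-0.22) and Cd14 (-2.35) were not.

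Fibrillar collagens were on the higher side after overventilation except for Col5a3, a chain of collagen V. The median log2 change of the 4 tested was 0.57, against -0.01 over all tested probes, and 0.18 over all 8 when the members not tested were kept. The value of 0.18 draws on Col1a1, which lay above the common floor on overventilation array 3 alone. Col11a1, a minor fibrillar collagen that limits fibril width and is best known from cartilage, stood at -0.24, 0.05 and 0.19 in controls, -0.42, 0.38 and 0.13 after LPS and 0.57, 1.05 and 0.90 after overventilation. Every overventilated sample lay above all 6 others, a 1.79-fold difference from control (log2 change 0.84, SE 0.32, limma adjusted p = 0.268) and a 1.75-fold difference from LPS (adjusted p = 0.496). Of 4 probes for cartilage markers the floor held 1 on all 9 arrays, and Acan and Chad were tested, with a median of -0.06, 0.20 and 0.76 on the overventilation arrays against -0.64 to 0.51 on the controls, so they overlapped. Col5a1 and Col5a2, which form the collagen V that starts fibril assembly, stood at 0.60, 0.13 and 1.10 and at 0.82, 0.25 and 0.52 after overventilation, against 0.04, 0.56 and -0.59 and -0.10, 0.26 and -0.16 in controls. Both genes overlapped with the controls, through overventilation array 2. Col5a3 had values of -0.34, 0.17 and 0.17 in controls, -0.54, -0.61 and -0.66 after overventilation and -1.25, -0.47 and -0.78 after LPS. It was lower than every control in both treated groups, by log2 changes of -0.61 (SE 0.32, limma adjusted p = 0.413) and -0.83 (SE 0.32, adjusted p = 1), and both comparisons use the same 3 controls.

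The stretches of DNA just upstream of 4 of these genes are shown as examples, chosen after their values were seen: Col6a3 and Lamb2 had the lowest changes without overlap after overventilation, Col11a1 the highest, and Col5a3 was lower than every control in both treated groups. Each is the part of the RefSeq promoter window of GRCm38.p6 that lies outside the gene's own transcripts, 5′ to 3′ in the direction of the gene, with the GC box (GGGCGG) and the CCAAT box (CCAAT) in capitals on either strand. Col6a3 is from chr1:90844002-90844221 on the minus strand, Lamb2 from chr9:108479612-108479846 on the plus strand, Col11a1 from chr3:114030290-114030478 on the plus strand and Col5a3 from chr9:20815118-20815317 on the minus strand.
Col6a3: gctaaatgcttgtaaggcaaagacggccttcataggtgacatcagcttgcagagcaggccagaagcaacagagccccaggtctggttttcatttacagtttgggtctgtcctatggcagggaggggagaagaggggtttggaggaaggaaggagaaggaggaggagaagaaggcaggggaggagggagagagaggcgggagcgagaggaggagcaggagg
Lamb2: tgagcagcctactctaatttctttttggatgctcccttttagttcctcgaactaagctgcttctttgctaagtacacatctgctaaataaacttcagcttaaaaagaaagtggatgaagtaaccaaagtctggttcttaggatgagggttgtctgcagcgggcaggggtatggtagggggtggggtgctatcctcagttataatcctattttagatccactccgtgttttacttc
Col11a1: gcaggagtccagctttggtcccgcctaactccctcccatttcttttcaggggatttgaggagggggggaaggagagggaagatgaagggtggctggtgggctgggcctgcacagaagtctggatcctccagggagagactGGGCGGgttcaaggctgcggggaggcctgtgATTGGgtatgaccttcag
Col5a3: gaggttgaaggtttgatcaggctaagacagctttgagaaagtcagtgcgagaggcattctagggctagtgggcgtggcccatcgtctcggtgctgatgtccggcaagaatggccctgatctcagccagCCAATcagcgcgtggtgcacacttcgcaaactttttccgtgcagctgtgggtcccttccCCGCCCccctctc
The Col6a3 and Lamb2 stretches hold neither box, and those of Col11a1 and Col5a3 hold 1 of each. TATAAA was in none of the 4. In windows of 250 bases before to 50 after the start, GGGCGG occurred in 26 of 48 windows of members (54.2%) and in 35.7% of all 32851 windows, CCAAT in 29.2% and 37.4%, TATAAA in 6.25% and 13.6%, and the AP-1 letters TGANTCA in 6.25% and 7.81%. Entries existed for 43 of the 59 member genes. Matches describe letters only and are no binding sites.

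Basement membrane collagens went in different directions, although Col4a3, Col4a4 and Col4a5 form a single trimer in the alveolar basement membrane. Their median log2 change after overventilation was 0.48 over 5 tested probes, with a range of -1.15 to 1.19. Col4a4 stood at 0.64, 0.15 and 0.66 after overventilation against 0.19, -0.10 and -0.09 in controls, and Col4a5 at 2.62, 0.06 and 0.87 against -0.06, -0.17 and 0.24. On overventilation array 2 both were inside the control range. Col4a3, whose gene model shares 114 bases with that of Col4a4 in RefSeq, ran the other way on these arrays, at -1.96, 0.99 and -1.21 against -0.31, 0.67 and -0.36. The log2 changes of Col4a4, Col4a5 and Col4a3 were 0.48 (SE 0.29), 1.19 (SE 0.67) and -0.73 (SE 0.77), and all had overlapping samples. Without overventilation replicate 1 that of Col4a5 was 0.47. LPS array 3 held the other high value of Col4a5, at 1.80. Col4a1, which with Col4a2 makes up the collagen IV of most basement membranes, lay at 0.25, 0.58 and 0.81 after overventilation, at -0.61, 1.21 and -0.29 after LPS and at -0.51, 0.10 and 0.41 in controls (log2 change from control 0.55, SE 0.48, limma adjusted p = 0.655). The groups overlapped, and the change was 0.29 without control replicate 1 and 0.33 with quantile normalization.

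Col18a1, the collagen of basement membranes that carries heparan sulfate and gives rise to endostatin, was low in all 3 overventilated samples, at -2.27, -0.56 and -0.63, against -0.23, -0.18 and 0.41 in controls. After LPS it stood at -1.05, -0.12 and -0.79, with array 2 inside the control range. Its log2 change was -1.15 after overventilation (2.22-fold lower, SE 0.49, limma adjusted p = 0.307), and -0.59 without overventilation replicate 1, which carries much of the mean. After LPS it was -0.66 (SE 0.49, adjusted p = 1). These comparisons share their controls.

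Among the epithelial anchoring genes Lama3 and Itgb4 lay above all other arrays on overventilation arrays 1 and 3. Lama3 and Lamb3 code for chains of the laminin of hemidesmosomes, the junctions that fix epithelium to its basement membrane, and Itgb4 for the beta subunit of their integrin. Lama3 stood at 0.65, -0.13 and 0.85 after overventilation against -0.19, 0.21 and -0.03 in controls (log2 change 0.46, SE 0.34). Itgb4 stood at 0.49, -0.12 and 0.78 against 0.39 on control array 1 and the common floor of -0.19 on the other controls (0.38, SE 0.34), and Lamb3 at 0.36, -0.62 and 0.07 against -0.02, -0.08 and 0.09 (-0.06, SE 0.34). Each of these genes overlapped with the controls. Col17a1, the transmembrane collagen of the hemidesmosome, was the highest member without overlap after LPS, at 0.59, 0.76 and 0.28 against 0.09, 0.09 and -0.17 in controls and 0.07, -0.07 and -0.78 after overventilation. Every LPS sample lay above all 6 others, by a log2 change of 0.54 from control (SE 0.32, limma adjusted p = 1) and with overventilation 1.74-fold lower than LPS (log2 change -0.80, adjusted p = 0.499).

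Few integrins could be compared, and none of them separated the groups. Itgb1, the beta subunit of most matrix-binding integrins, stood at 0.85, 0.05 and -0.90 in controls, 0.84, 0.52 and -0.27 after LPS and -0.90, 0.41 and -0.90 after overventilation. The value of -0.90 is the common floor, met by control array 3 and overventilation arrays 1 and 3, so its log2 change of -0.46 (SE 0.54, limma adjusted p = 0.753) is measured on an incomplete scale. It was 0.16 with quantile normalization, -0.77 without the common floor and between -0.91 (without control replicate 3) and -0.037 (without control replicate 1) when 1 array was left out. Itgal, the alpha subunit of the lymphocyte integrin LFA-1, had 0.35, 0.35 and 0.55 after LPS and 0.33, 0.34 and 0.45 after overventilation against 0.36, 0.17 and -0.52 in controls. Control array 3 was the low value, and the other controls lay near the treated samples. Itgax, which marks dendritic cells and alveolar macrophages, ranged from -1.05 to 1.53 within the controls and from -1.15 to 0.64 on the treated arrays. Itgb6, the epithelial subunit that activates TGF-beta, had a log2 change of -0.11 after overventilation (SE 0.34, adjusted p = 0.922), and Itgb2l, a relative of Itgb2 with 1 of its 2 probes tested, of -0.02 (SE 0.29).

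Of the integrin-binding proteins Itgb1bp1, known as ICAP1, which binds the tail of the beta subunit and restrains its activation, was lower than control in all 3 overventilated samples. It stood at -0.80, -0.47 and -2.73 against -0.08, -0.07 and 0.16 in controls and -0.34, 0.10 and -0.75 after LPS (log2 change -1.33, SE 0.54, limma adjusted p = 0.284), and its change was -0.63 without overventilation replicate 3. Itgb3bp, a protein of the centromere, was at the common floor on all 3 overventilation arrays and LPS arrays 1 and 3, against 0.35, -0.24 and -0.11 in controls. With the overventilation arrays at that floor it was 1.42-fold lower than control (log2 change -0.51, limma adjusted p = 0.445). This change was -1.23 without the common floor, -0.34 without control replicate 1 and -0.34 with quantile normalization. Its log2 change after LPS was -0.45 (adjusted p = 1), -0.75 without the common floor and -0.28 without control replicate 1. Itgb1bp2, a muscle protein also called melusin, overlapped, with a log2 change of -0.46 (SE 0.47) after overventilation.

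**Figure D4:**
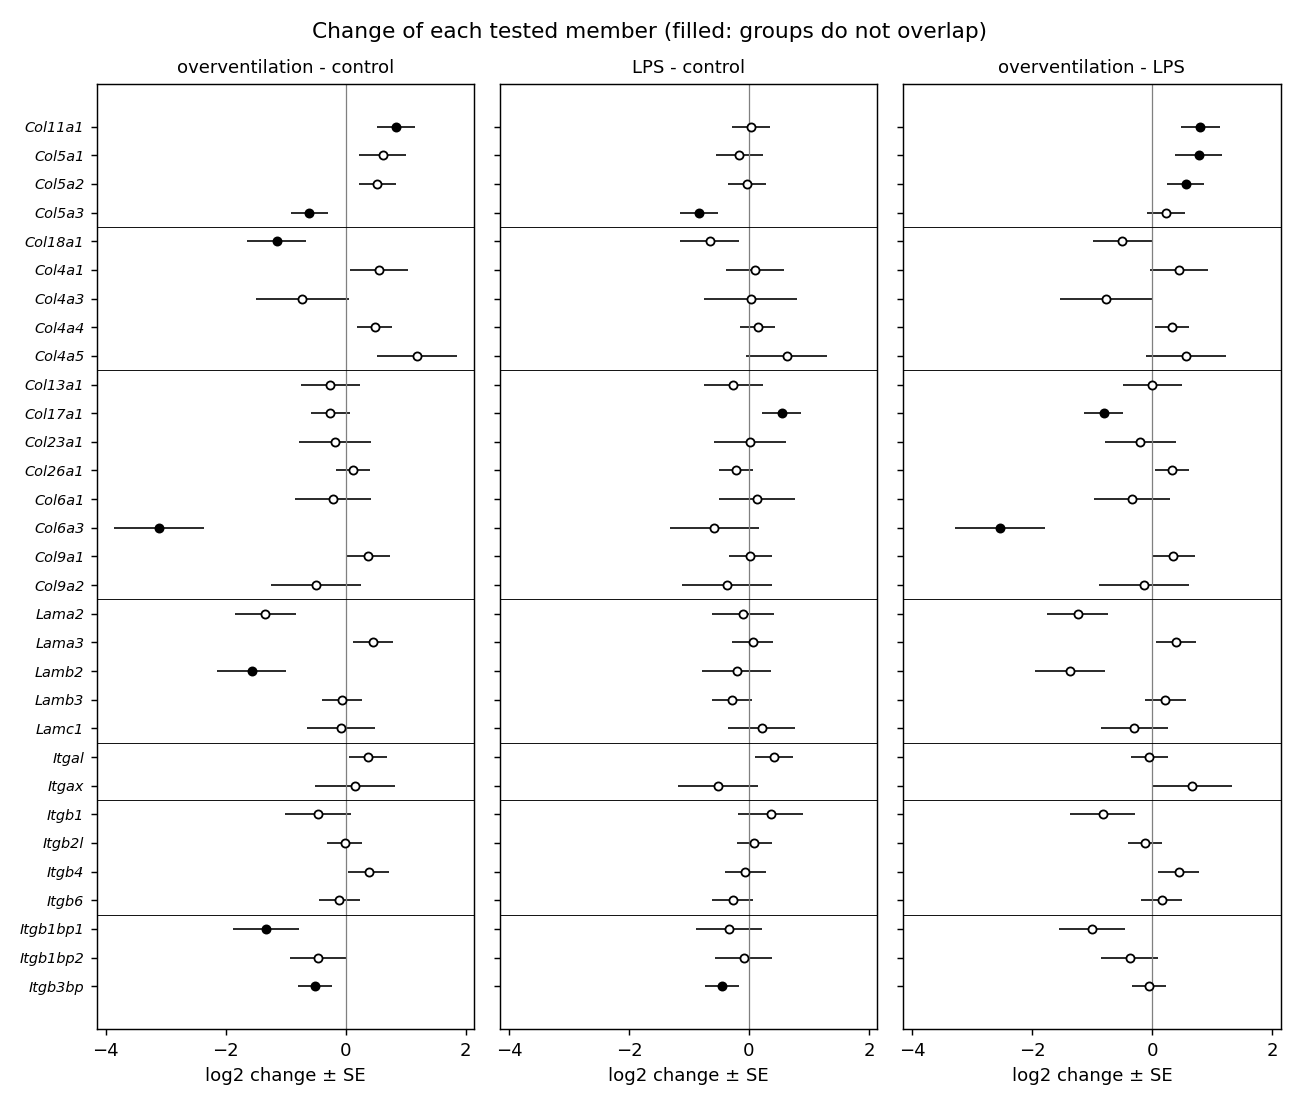
Points give the log2 change of each tested member in the 3 comparisons, with the standard error of limma as bars, and filled points mark members whose groups do not overlap. Of 31 members 7 are filled for overventilation against control, 3 for LPS against control and 5 for overventilation against LPS.

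LPS was compared with control next, and the samples overlapped for most members. At an unadjusted p under 0.05 stood 1 of 31 tested members (3.23%, against 2.07% of all tested probes), Col5a3. There was no overlap for 3 of 31 (9.68%, against 6.32% of all probes), Col17a1 on the higher side (2.24%) and Col5a3 and Itgb3bp on the lower (4.08%). The medians of the collagen, laminin and integrin classes lay between -0.10 and 0.10, and that of the 3 integrin-binding proteins was -0.33, against -0.05 over all tested probes. The main fit did not pair the arrays. With the replicate numbers as a block, the count of probes at an unadjusted p under 0.05 for LPS against control was 314 in place of 118. That of members stayed at 1, and no probe passed after adjustment.

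The comparison of overventilation with LPS sets the treated groups against each other, and the controls enter it through the estimate of spread alone. The fibrillar collagens had a median log2 change of 0.67, against 0.07 over all tested probes and 0.29 over all 8 with the members not tested kept. All 4 tested members were on the higher side. The samples did not overlap for 3 of them, Col11a1 (0.81, SE 0.32), Col5a1 (0.77, SE 0.39) and Col5a2 (0.56, SE 0.31). In all, 5 of 31 members did not overlap (16.1%, against 11.2% of all probes), and 5.71% of all probes were higher without overlap. None passed limma (adjusted p = 0.496, 0.559 and 0.588). Lower without overlap were Col6a3 and Col17a1, against 5.46% of all probes. At an unadjusted p under 0.05 stood 5 of 31 tested members (16.1%, against 9.51% of all probes), Col11a1 higher (3.57%) and Col6a3, Col17a1, Lama2 and Lamb2 lower (5.94%). With the spread taken from the compared groups alone, without LPS replicate 1 or without overventilation replicate 3, Col6a3 was the member left.

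Genes that make, fill or read the matrix were followed in lists of related genes. The lists were drawn up with earlier results of these data known, so their counts are descriptions and no test of a list. Integrin ligands had a median log2 change of 1.73 after overventilation over 8 of 18 probes tested, 5 of them higher at an unadjusted p under 0.05 (6.20% of all tested probes) and 0 lower (8.69%). Vcam1, the endothelial ligand of leukocyte integrins, had a log2 change of 2.42 (SE 0.57, limma adjusted p = 0.193) and lay at 1.54, 2.27 and 3.45 on the overventilation arrays against -0.17, 0.77 and -0.60 in controls. Cdh1, E-cadherin, an epithelial ligand, had a log2 change of 2.40 (SE 0.63, adjusted p = 0.193). The lowest ligand was vitronectin, Vtn, at -0.29. After LPS the median of the list was 0.55, with 0 of 8 at an unadjusted p under 0.05.

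Enzymes and chaperones of collagen synthesis had a median log2 change of 0.22 after overventilation over 13 of 18 probes tested, 1 of them higher (6.20% of all tested probes) and 2 lower (8.69%) at an unadjusted p under 0.05. Lox, which crosslinks collagen and elastin, was the highest at 1.82 (SE 0.50, limma adjusted p = 0.201), and Ppib, a prolyl isomerase of collagen folding, the lowest at -1.35 (SE 0.58, adjusted p = 0.309). After LPS the list stood at -0.14 with 0 of 13 at that threshold, and its lowest member Crtap, a partner of prolyl hydroxylase, at -1.88 with -5.42 on LPS array 2. Other basement membrane and elastic fibre genes had medians of -0.11 after overventilation and -0.29 after LPS over 8 of 14 probes tested, with 0 at an unadjusted p under 0.05 in either direction. Their lowest member after overventilation was Nid1, nidogen, which links laminin to collagen IV, at -1.01 (SE 0.61). Cytoplasmic partners of integrins had medians of 0.04 and -0.32 over 8 of 14 probes tested, with Zyx, the focal adhesion protein zyxin that moves to stretched actin fibres, at 1.36 (SE 0.47, limma adjusted p = 0.23) and Cib1, which binds an integrin tail, at -0.96 (SE 0.42, adjusted p = 0.311) after overventilation.

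Arrays of the same number resembled each other at some members, and at probes outside the members as well. The share among members was below that of all tested probes except for array 3 as the lowest. Array 1 was the highest of its group in all 3 groups for Col6a1, Col9a2, Col23a1 and Lamc1, or 4 of 31 tested members (12.9%, against 16.9% of all tested probes), and the lowest in all 3 groups for Col4a1, Col11a1 and Col18a1 (9.68%, against 16.9%). Array 2 was the highest for Col4a3 and Lama2 (6.45%, against 9.05%) and the lowest for Lamb3 (3.23%, against 3.38%). Array 3 was the highest for 0 members (3.27% of all probes) and the lowest for 4, Col13a1, Col17a1, Col26a1 and Lama2 (12.9%, against 7.36%). For Col9a2, a cartilage collagen chain, the values were 1.00, -1.29 and 0.28 in controls, 1.22, -0.69 and -1.62 after LPS and 0.01, -0.76 and -0.75 after overventilation. The spread within each group was as wide as any difference between the groups. Col23a1, a transmembrane collagen, likewise stood at 0.62, 0.89 and 1.07 on the arrays numbered 1 and between -0.95 and -0.12 on the other 6. Col9a1, Col13a1 and Col26a1 overlapped in every comparison, with log2 changes between -0.26 and 0.37.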

How the data were processed

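RNA of mouse lung was measured on 9 arrays, 3 for each of control, LPS and overventilation. The deposited values are linear ratios, as tested on the values: the mean log2 ratio of the 3 controls was 0 at each of the 10012 probes (largest deviation 2.5e-09). No source used here names the array maker, the scanner or how arrays were scaled. The number of arrays limits the precision. At 4690 probes 2 or more arrays shared the floor pattern (tolerance 1e-06, log2), at 1908 of them all 9; the other 5322 have no known distance from it.

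The plan had assumed log2 values, which were taken from the ratios. Values at known levels were raised to the highest floor (1.15, log2), then divided by the mean of the controls once more, and probes above it on at least 3 arrays, or of unknown distance, were tested. Limma 3.58.1 in R 4.3.3 compared group means over all 9 arrays (eBayes, two-sided, Benjamini-Hochberg over 5710 probes, threshold 0.05), with no block and no added scaling. The fit was tested on simulated data. Deviations of same-numbered arrays from their group means correlated at 0.497, 0.247 and 0.199 for LPS and control, at 0.508, 0.133 and 0.033 for overventilation and control and at 0.496, 0.211 and 0.038 for overventilation and LPS. The labels give no pairing, so a pairing by number would come from the data alone, and it was used only as an alternative.

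Names came from the annotation of the platform, and all 60 member symbols matched the RefSeq table. Members and lists were chosen with earlier results of these data known. Named by rule were 12 genes fixed by name, the 4 highest and 4 lowest members without overlap per comparison, and the extremes of each related list; other members were named after their values were seen. The planned likeness of Col1a1 with Col1a2 and Col4a1 with Col4a2 could not be computed, since 3 of these 4 were not tested. Alternatives were the floor, the filter, the scaling, the block, the samples and the probes per gene.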

Additional observations from a re-analysis of the deposited data

How the results depend on the processing

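Of the alternative counts of called probes 50 stayed at 0 and 4 did not. Of the alternative medians of classes 317 moved by less than the spread between replicates and 7 by more. That spread was the larger SD of the class median over the arrays of the compared groups. Part of the 317 was fixed in advance. The block, the fit on the compared groups alone and leaving out an array of the group not compared cannot move a class median. Within that spread the other collagens changed sign, from -0.23 to 0.05 without control replicate 1 (overventilation against control). The 4 counts came from leaving out overventilation replicate 2 or control replicate 3 (1 probe each), with a range of 0 to 290 for overventilation against control, 0 to 226 for overventilation against LPS and 0 to 1 for LPS against control. With no filter, members never above the common floor count as 0, and those above it on 1 or 2 arrays keep these values. The median of the fibrillar collagens was then 0.18 for overventilation against control and 0.29 for overventilation against LPS. Both medians draw on Col1a1, which lay above the common floor on overventilation array 3 alone, by 1.05. That of the laminins was 0.00 for overventilation against LPS. Leaving out 1 array in turn gave medians of -0.79 to -0.018 for the laminins and -0.41 to 0.05 for the other collagens (overventilation against control), and of -0.45 to 0.46 for the basement membrane collagens and -0.32 to 0.13 for the laminins (LPS against control). For overventilation against control Lamc1 turned from -0.08 to 0.065 without overventilation replicate 3 and at the lower floor, and it ranged from -0.79 to 0.43 over the left-out arrays. Itgb6 ranged from -0.31 to 0.14, and Itgb1 turned to 0.16 with quantile normalization. The cause of these shifts was not tested. With the replicate block, no probe was called in any comparison, and the unadjusted counts were 1200, 314 and 840 in place of 850, 118 and 543; it changed no call. Without overventilation array 3 and at the lower floor of the other arrays, 34 members were tested and none was called. Signal over the floor limits what can be said of the integrins.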
